A study of Mus musculus with 7 samples.

Results

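The 50 genes described here encode the parts of the lysosome: the vacuolar ATPase that acidifies it, the hydrolases that work in it with their activator proteins, and proteins of its membrane. Their RNA was read in primary mouse keratinocytes, which make up most of the epidermis, 48 h after small interfering RNA (siRNA) against Trp63 or a non-specific control siRNA had been transfected. Members were all genes with a symbol beginning with Atp6v0 or Atp6v1 (19 measured) and 31 of 32 listed genes, out of 12393 genes with a probe set of their own on the Affymetrix array. Each gene is read from its brightest probe set, by the mean over all arrays. Tcfeb of the list was measured under its current symbol Tfeb, and Cd63 was not analysed here, nor were Atp6v0c, Atp6v0d2 and Atp6v1g3. The choice used names alone and no measured value, though it was made with results of these data known. By role the 50 were 21 pump genes, 23 hydrolase and activator genes, 5 membrane protein genes and 1 transcription factor gene.

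There were 5 arrays with Trp63 siRNA (replicates 1, 2, 3, 4 and 7) and 2 with control siRNA (replicates 5 and 6). The mouse strain and age, the siRNA sequences and whether replicates were separate cultures are not given in the sources used here, and the p-values below therefore reflect the scatter of these 7 samples alone, part or all of which may be technical. The deposited values are intensities in linear units, with array medians between 207 and 214, and their number limits the precision. Values of replicates are always given in the order 1, 2, 3, 4 and 7 for silenced and 5 and 6 for control arrays.

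The vacuolar ATPase is a rotary proton pump. Its V1 sector in the cytosol splits ATP and its V0 sector in the membrane carries protons into the lumen, and the low pH that results is needed by cathepsins, glycosidases and lipid-degrading enzymes, most of which arrive from the Golgi on mannose 6-phosphate receptors. Tfeb and its relatives of the MiT family can switch on many of these genes through a DNA element called CLEAR. In the epidermis, lysosomal hydrolases also take part in the processing of lipids and proteins as keratinocytes form the outer barrier. Trp63 encodes p63, a transcription factor of stratified epithelia.

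Trp63 was lower on every silenced array than on either control. Trp63 read 541, 519, 457, 504 and 492 on the silenced arrays and 1447 and 1683 on the controls (a log2 difference of -1.61 with SE 0.088, adjusted p = 1.0e-05 by limma). The keratins Krt5 and Krt14, which define keratinocytes, read at least 10843 and 14413 on all 7 arrays. Both were lower with Trp63 siRNA with no overlap (log2 differences of -0.32 and -0.20, adjusted p = 0.00212 and 0.000455 by limma). On control replicates 5 and 6 Krt14 read the highest intensity of the array (16960 and 17165), so its difference may come out too small. The summed level of 15 keratinocyte markers, Trp63 among them, was 50713 to 55939 on silenced arrays against 69211 and 70315 on controls. Melanocyte genes were also present: the summed level of 13 measured markers was 13440.3 and 13900.4 on silenced replicates 1 and 2 and on control replicate 5 it was 11785, against 8167 to 8557 on silenced replicates 3, 4 and 7 and 7999 on control replicate 6, so each group held arrays of both kinds. The mean level of 45 spike control probe sets also set arrays apart, with silenced replicates 2, 3 and 7 (log2 level 9.17 to 9.27) above the other 4 arrays (8.90 to 8.97), and no control was among the high ones. In bulk RNA, fewer cells of a type and less RNA per cell cannot be told apart.

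Of the 50 genes, 15 rose with Trp63 silencing, 6 fell and 29 did not pass. Here and below, a gene rose or fell where limma's test over all 22626 probe sets gave an adjusted p under 0.05, and differences are on the log2(intensity + 16) scale, on which changes of dim genes come out too small. The rises were 30.0% of the members, against 8.03% of all genes, and the falls were 12.0%, against 8.57%. In either direction 42.0% were called, against 16.6% of all genes. Bright genes were called more often, and 42 members lay at or above the median level: of these 33.3% rose and 14.3% fell, against 12.0% and 11.0% of all genes at that level (23.0% in either direction). The share that fell was thus near the background. Level here is the mean over all 7 arrays, 5 of them silenced. Neu1, Manba and Cd68, counted among these rises, reached it although both their controls read below the array medians. The median difference was 0.08 over the members and -0.04 over all genes. On 21 members all silenced arrays lay above both controls and on 8 all lay below, where 14.3% and 24.0% of all genes did so. Without control replicate 6, 10 rose and 1 fell, and 3.75% and 2.78% of all genes did. When the spike level entered as a block 13 rose and 2 fell, against 5.45% and 3.57% of all genes. On the 4 arrays of low spike level alone 7 rose and 1 fell, against 2.61% and 1.21% of all genes. Both spike fits take their differences from these 4 arrays, as no control had a high level.

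**Figure D1:**
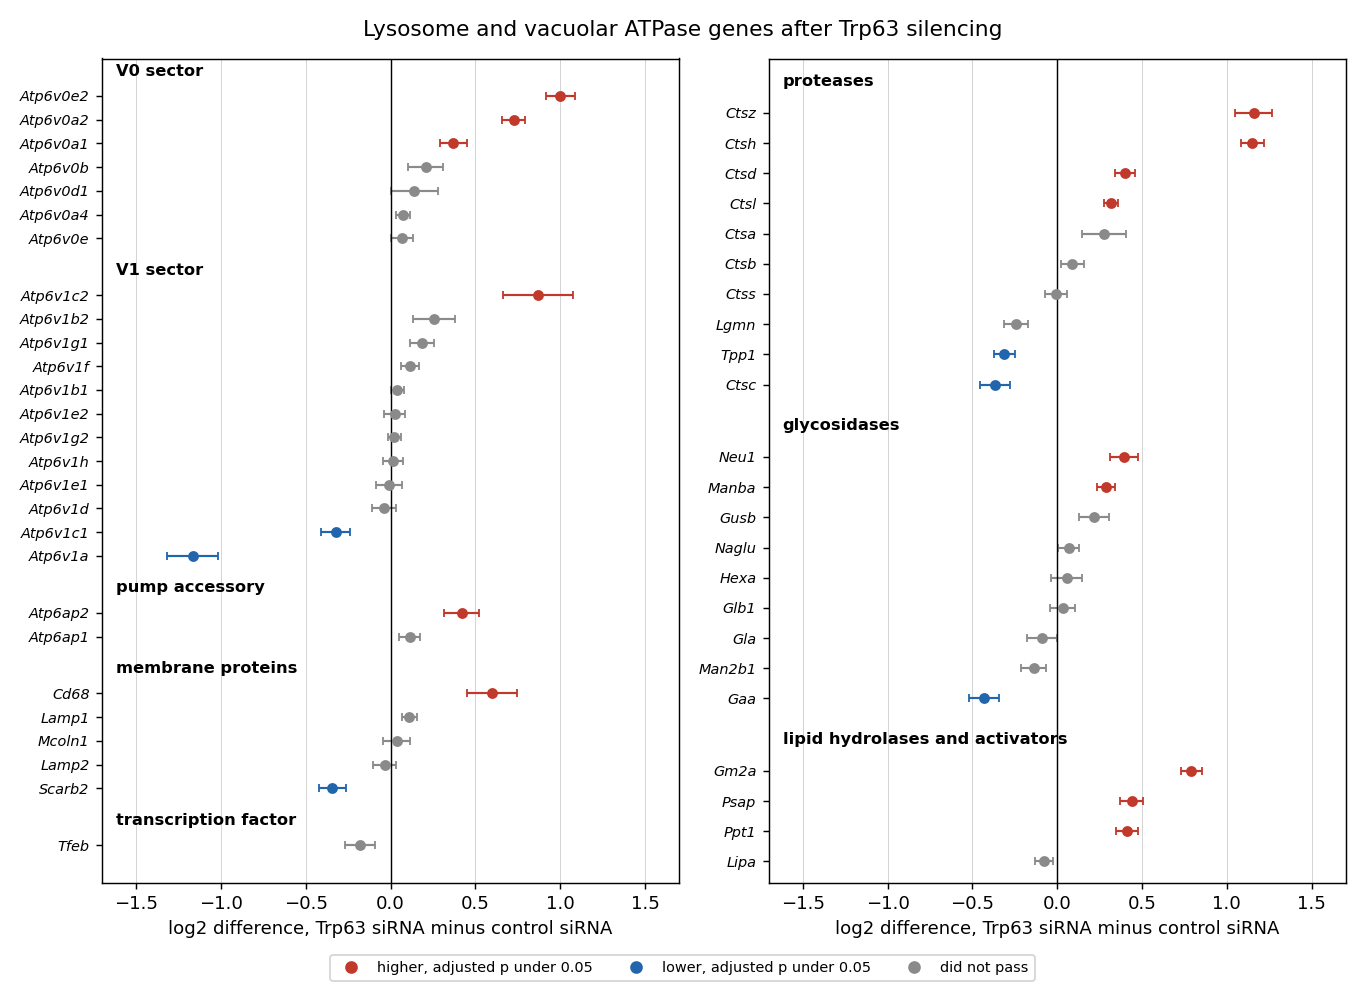
The log2 difference between 5 Trp63 siRNA and 2 control siRNA arrays is plotted for each of the 50 genes, grouped by role, with bars of 1 SE and colours for the result of limma's test. Ctsz (1.16), Ctsh (1.15) and Atp6v0e2 (1.001) stand farthest to the right and Atp6v1a (-1.17) farthest to the left.

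Promoter sequences show how the E-box core of CLEAR is spread among the members. RefSeq windows (GRCm38.p6, 250 bases before to 50 after each start site) were found for 43 of the 50 genes. The letters CACGTG, which read the same on both strands, occurred in a window of 14 of them (32.6%), against 8.09% of all 27025 genes in the table. The longer TCACGTGA, the CLEAR core, which also reads the same on both strands and contains CACGTG, occurred for 7 of the 43 (16.3%), against 1.12% of all genes. Matches were found among members of every outcome. CACGTG was present for 2 of 13 members that rose (Ctsd and Ctsl), 2 of 5 that fell (Atp6v1a and Gaa) and 10 of 25 that did not pass, and TCACGTGA for 1, 1 and 5 of the same. These are counts of letters in a window and not of bound sites. Shown first are the stretches before the start sites of Ctsd (chr7:142387888-142387967, minus strand) and Atp6v1a (chr16:44139350-44139429, minus strand), which share the CLEAR core and moved in opposite directions, with TCACGTGA in capitals.
Ctsd: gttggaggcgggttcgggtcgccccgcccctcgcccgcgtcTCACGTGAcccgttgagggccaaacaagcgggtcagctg
Atp6v1a: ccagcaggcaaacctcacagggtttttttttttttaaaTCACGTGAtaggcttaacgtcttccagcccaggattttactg
Then follow Lamp1 (chr8:13159081-13159160, plus strand), Mcoln1 (chr8:3500429-3500508, plus strand) and Atp6v0b (chr4:117887330-117887409, minus strand), chosen because they hold 4, 2 and 2 copies of CACGTG, in capitals, and did not pass the test. Whether any of these copies acts on its gene was not tested.
Lamp1: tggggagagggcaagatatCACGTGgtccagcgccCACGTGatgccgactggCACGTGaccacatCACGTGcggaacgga
Mcoln1: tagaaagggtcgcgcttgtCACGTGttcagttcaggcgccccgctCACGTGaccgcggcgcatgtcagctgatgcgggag
Atp6v0b: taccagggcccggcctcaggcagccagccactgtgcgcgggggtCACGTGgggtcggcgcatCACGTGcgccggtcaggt

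Pump genes are given by sector, and the difference between sectors was not tested. Of 7 measured V0 genes 3 rose and none fell, and all 7 differences were above 0. The 12 V1 genes held 1 rise and 2 falls, and the 2 accessory genes 1 rise. Together 23.8% of the pump genes rose and 9.52% fell, against 8.03% and 8.57% of all genes. Of all genes at or above the median level, where 16 of the 21 lay, 12.0% rose and 11.0% fell. The share of pump genes that fell was thus near the background.

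The rises in V0 were in isoforms of the a and e subunits. Atp6v0a2, an isoform of the large a subunit that lines the proton path and helps to set where the pump resides, read 663, 672, 630.1, 627 and 602 on the silenced arrays and 383 and 376 on the controls. This was a 1.654-fold rise (a log2 difference of 0.73 with SE 0.069, adjusted p = 0.0002 by limma), and the groups did not overlap. Its other 2 probe sets rose by 0.45 and 0.40 on the log2 scale. Atp6v0e2, an isoform of the small e subunit, read 284, 249, 262, 255 and 251 on the silenced arrays and 137 and 108 on the controls. It rose 2.002-fold (a log2 difference of 1.001 with SE 0.086, adjusted p = 0.000111 by limma), with every silenced array far above both controls. The control values lay below the median of the arrays, where a probe set is hard to tell from background, so this fold is uncertain. Atp6v0a1, another a isoform, read 316, 310.1, 264, 281 and 275 on the silenced arrays and 227 and 212 on the controls. The rise was smaller (1.29-fold, a log2 difference of 0.37 with SE 0.081, adjusted p = 0.0145 by limma) and no longer passed with 1 control only (limma adjusted p = 0.0579 when replicate 5 was dropped and 0.134 when replicate 6 was). Of its other 3 probe sets 2 rose and 1 differed by -0.01, and the mean of all was 0.21 higher on the log2 scale. Of the common V0 subunits, those measured did not pass: the c-ring gene Atp6v0b differed by 0.21, the rotor-linking Atp6v0d1 by 0.14 and the common e subunit gene Atp6v0e by 0.07 (limma adjusted p = 0.209, 0.538 and 0.54). Atp6v0a4, the a isoform of kidney and inner ear, was dim (130.1 ± 3.52 as mean ± SD of 5 arrays against 123 ± 4.46 of 2) and did not pass. The a3 isoform is encoded by Tcirg1, which the name rule did not take, and read 437 ± 22.5 (SD, n = 5) against 411 ± 2.51 (SD, n = 2), without passing.

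In V1 the catalytic subunit gene Atp6v1a fell. It read 1053, 1141, 743, 838 and 852 on the silenced arrays and 2121 and 2022 on the controls. The difference was a 2.25-fold fall (a log2 difference of -1.17 with SE 0.15, adjusted p = 0.00102 by limma), and every silenced array lay far below both controls. The second Atp6v1a probe set fell too, from 1605 in controls to 889.7 (-0.85, limma adjusted p = 0.000887). Within the arrays of high melanocyte level the difference of Atp6v1a was -0.94 and within those of low level -1.304. The partner of Atp6v1a in the ATP-splitting ring, Atp6v1b2, read 2977, 3026, 2202, 2378 and 2328 on the silenced arrays and 2198 and 2085 on the controls. It did not pass (a log2 difference of 0.26 with SE 0.13, adjusted p = 0.207 by limma), and silenced replicates 1 and 2 stood well above the others.

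The isoforms of subunit C, which clamps V1 to V0, moved apart. Atp6v1c1, the widespread isoform, read 1418, 1428, 1208, 1259.9 and 1193 on the silenced arrays and 1602 and 1655 on the controls. It fell 1.25-fold (a log2 difference of -0.32 with SE 0.087, adjusted p = 0.0349 by limma). Atp6v1c2, the isoform of a few epithelia, read 578, 569, 403, 472 and 458 on the silenced arrays and 351 and 195 on the controls. It rose 1.82-fold (a log2 difference of 0.87 with SE 0.21, adjusted p = 0.0202 by limma), with the widest gap between the controls of any called pump gene. Its log2 difference was 1.27 without control replicate 5 and 0.47 without control replicate 6. Both calls were weak: Atp6v1c1 lost its call without either control or without silenced replicate 3, 4 or 7 (limma adjusted p = 0.0702 to 0.187), and its other probe sets (-0.14 and -0.25) did not pass. The call of Atp6v1c1 also went with the mean of probe sets (0.0506) and the spike block (0.164), while Atp6v1c2 lost its call without control replicate 6 (0.182) and when the spike level entered as a block (0.0649).

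The other 8 V1 genes lay between -0.04 and 0.19. They include the rotor genes Atp6v1d (-0.04) and Atp6v1f (0.11), the stator genes Atp6v1e1 (-0.01) and Atp6v1g1 (0.19) and the regulatory subunit gene Atp6v1h (0.01). A second bright probe set of Atp6v1g1 rose by 0.29 (limma adjusted p = 0.0326). Atp6v1b1, Atp6v1g2 and Atp6v1e2, isoforms of kidney, brain and testis, read below the array median in both groups.

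Among accessory genes, Atp6ap2, which encodes the prorenin receptor and pump assembly factor, read 2595, 3464, 3282, 3335 and 3399 on the silenced arrays and 2448 and 2326 on the controls. It rose 1.34-fold (a log2 difference of 0.42 with SE 0.10, adjusted p = 0.0239 by limma), and all 3 of its probe sets rose. Silenced replicate 1 lay near the controls, apart from the other silenced arrays. The call was lost without either control or without silenced replicate 2, 4 or 7 (limma adjusted p = 0.052 to 0.161), and when the spike level entered as a block (0.141). Atp6ap1, of the same assembly, differed by 0.11 and did not pass.

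**Figure D2:**
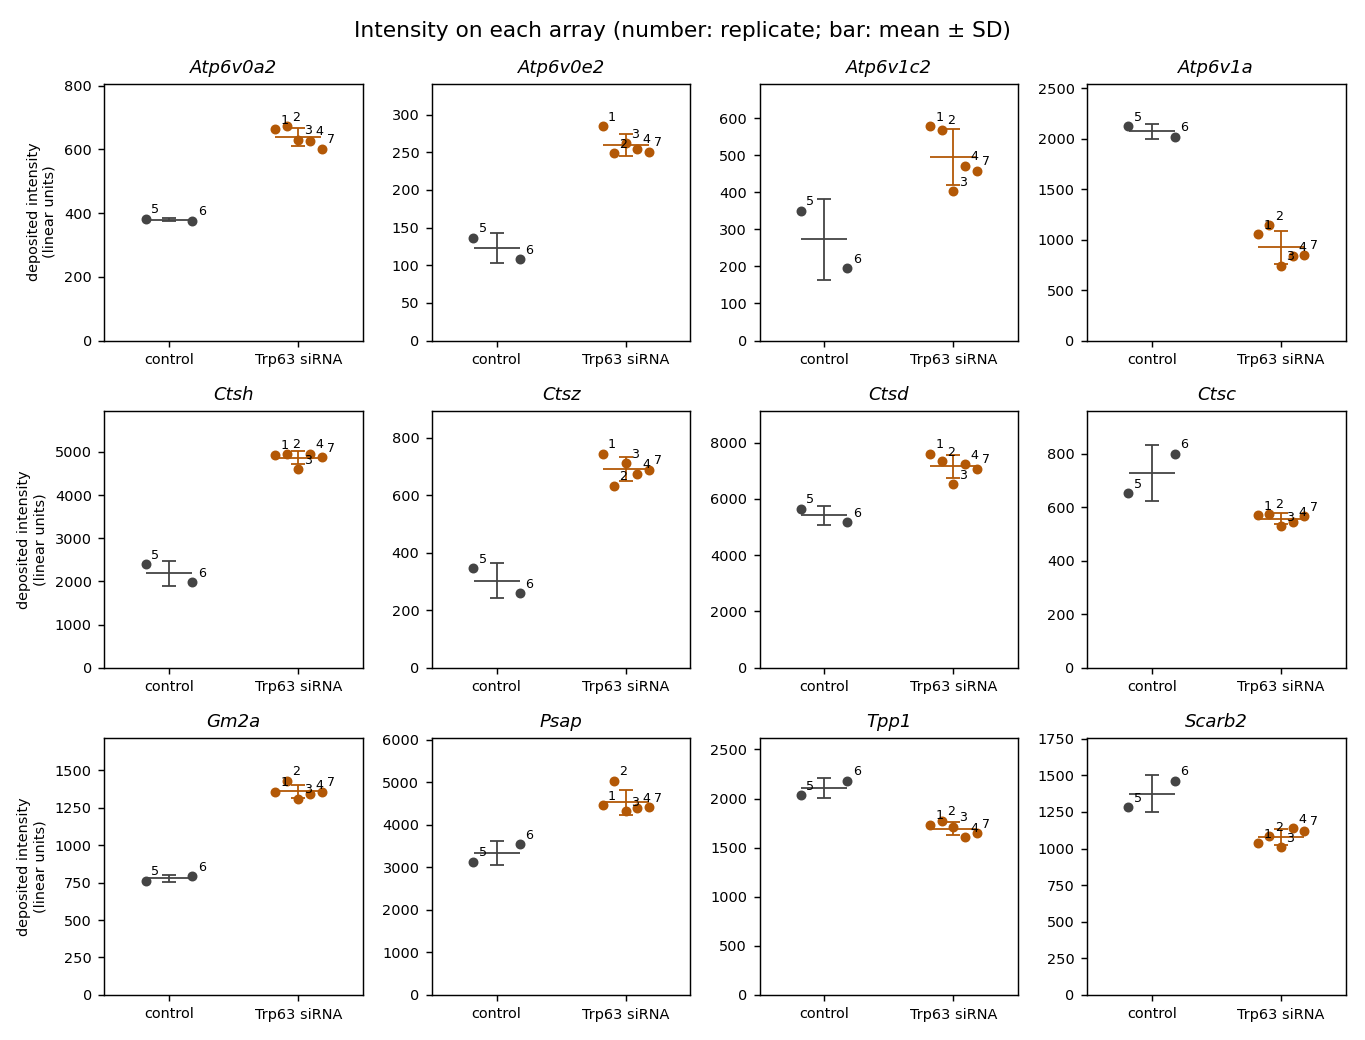
Intensity on each array, in linear units from 0, is shown for 12 of the called members, with dots numbered by replicate and a bar for the mean ± SD of 2 control and 5 silenced arrays. Atp6v1a, Ctsc, Tpp1 and Scarb2 are lower on every silenced array, and the other 8 genes are higher on every one.

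There were 9 rises and 3 falls among 23 hydrolase and activator genes, or 39.1% higher and 13.0% lower, and 11 did not pass. Of all genes at or above the median level, where 20 of the 23 lay, 12.0% rose and 11.0% fell, so the share that fell was near the background. Among 10 proteases, 4 cathepsins rose. Ctsh, an aminopeptidase, read 4930.2, 4956, 4595, 4959 and 4873 on the silenced arrays and 2397 and 1982 on the controls. This was a 2.22-fold rise with no overlap (a log2 difference of 1.15 with SE 0.069, adjusted p = 1.7e-05 by limma). Ctsz, a carboxypeptidase also known as cathepsin X, read 746, 634, 713, 676 and 689.8 on the silenced arrays and 347 and 259.7 on the controls. It rose 2.23-fold (a log2 difference of 1.16 with SE 0.11, adjusted p = 0.000188 by limma), and its other 2 probe sets rose by 1.01 and 0.83. The difference of Ctsz was 0.95 within the arrays of high and 1.36 within those of low melanocyte level.

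The bright endopeptidases changed less. Ctsd, the main aspartic protease of lysosomes, read 7611, 7349, 6516, 7231 and 7081 on the silenced arrays and 5648 and 5176 on the controls. It rose 1.32-fold (a log2 difference of 0.40 with SE 0.059, adjusted p = 0.00201 by limma). Ctsl, a cysteine protease needed for normal epidermis and hair follicles, read 8592, 9017, 7992, 8616 and 8542 on the silenced arrays and 6858 and 6844 on the controls. It rose 1.25-fold (a log2 difference of 0.32 with SE 0.041, adjusted p = 0.00106 by limma), and the controls differed from each other by far less than from any silenced array. Ctsb, the other abundant cysteine cathepsin, overlapped between the groups (0.09, SE 0.068, limma adjusted p = 0.415). Ctsa, the carboxypeptidase that protects the enzymes of Glb1 and Neu1, differed by 0.28 and did not pass. Ctss, the cathepsin of antigen-presenting cells, was dim and nearly equal (172 ± 10.04 as mean ± SD of 5 arrays against 172 ± 11.6 of 2).

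Other proteases were lower. Ctsc, the dipeptidyl peptidase that activates serine proteases of immune granules, read 570.0, 576, 529, 546 and 566 on the silenced arrays and 652 and 800.5 on the controls. It fell 1.29-fold (a log2 difference of -0.37 with SE 0.087, adjusted p = 0.0203 by limma), and the controls were farther apart than the silenced arrays. Tpp1, which removes tripeptides, read 1733, 1774, 1715, 1605 and 1644 on the silenced arrays and 2032 and 2181 on the controls. It fell 1.24-fold (a log2 difference of -0.31 with SE 0.062, adjusted p = 0.00893 by limma), and its second probe set fell by more (-0.58, limma adjusted p = 0.00092). Neither passed once control replicate 6 was left out (limma adjusted p = 0.192 for Ctsc, at a log2 difference of -0.22, and 0.105 for Tpp1), and Ctsc failed also without silenced replicate 4 (0.0516) and when the spike level entered as a block (0.0873). Lgmn, the asparaginyl endopeptidase that processes cathepsins, lay at the threshold (-0.24, SE 0.072, limma adjusted p = 0.0502), with all silenced arrays (299 to 351) below both controls (376 and 389). Lgmn passed as lower under several alternatives and not under others. Among the former were the filter at the 25th percentile, robust eBayes and array weights (limma adjusted p = 0.0397, 0.0445 and 0.0117).

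Of 9 glycosidases measured, 2 rose, 1 fell and 6 did not pass. Of all genes at or above the median level, where 8 of the 9 lay, 12.0% rose and 11.0% fell, against 22.2% and 11.1% here. The share that fell was near the background. The choice of probe set for Neu1 rested on the silenced arrays, as another was brighter in controls (240 against 186). At the chosen probe set Neu1, the lysosomal sialidase, read 269, 276, 225, 238 and 240.2 on the silenced arrays and 179 and 192 on the controls. It rose 1.31-fold (a log2 difference of 0.39 with SE 0.084, adjusted p = 0.0128 by limma), but its other 2 probe sets did not pass (-0.10 and 0.01), and the call went when control replicate 5 or 6 was dropped or probe sets were averaged (limma adjusted p = 0.117, 0.0665 and 0.185, the last at a log2 difference of 0.10). Manba, the beta-mannosidase, read 226, 225, 234, 231 and 230.0 on the silenced arrays and 177 and 193 on the controls. It rose 1.22-fold (a log2 difference of 0.29 with SE 0.054, adjusted p = 0.00703 by limma), with very little spread among the silenced arrays, and lost its call without control replicate 5 (0.0855). Gaa, the acid alpha-glucosidase that degrades glycogen, read 279, 253, 223, 241 and 246 on the silenced arrays and 317 and 365 on the controls. It fell 1.35-fold (a log2 difference of -0.43 with SE 0.089, adjusted p = 0.0112 by limma), its second probe set fell by 0.30 on the log2 scale, and the call was lost without control replicate 6 (0.126) and when the spike level entered as a block (0.0725). Gusb, Naglu, Hexa, Glb1, Gla and Man2b1, which degrade glycosaminoglycans, glycolipids and glycoproteins, lay between -0.14 and 0.22 and did not pass.

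Of the 4 members classed as lipid hydrolases or activators 3 rose (75.0%). Of all genes at or above the median level, where 3 of the 4 lay, 12.0% rose. The rises do not extend to lysosomal lipid enzymes outside the members: Asah1, Smpd1, Galc, Arsa and Pla2g15 lay between -0.07 and 0.17 and did not pass. Gm2a, the activator that presents the ganglioside GM2 to hexosaminidase A, read 1356, 1429.9, 1309.5, 1341 and 1357 on the silenced arrays and 762 and 794 on the controls. It rose 1.73-fold (a log2 difference of 0.79 with SE 0.062, adjusted p = 6.8e-05 by limma), and its second probe set rose by 0.86, while Hexa, the gene of the enzyme's alpha subunit, differed by 0.06. Psap, the precursor of the saposins that assist sphingolipid hydrolases, read 4459, 5035, 4313, 4398 and 4419 on the silenced arrays and 3129 and 3540.1 on the controls. It rose 1.36-fold (a log2 difference of 0.44 with SE 0.069, adjusted p = 0.00291 by limma), and its second probe set rose by 0.58. Ppt1, which removes palmitate from proteins, read 399.9, 367, 391, 403 and 393 on the silenced arrays and 296 and 284 on the controls. It rose 1.33-fold (a log2 difference of 0.41 with SE 0.064, adjusted p = 0.0028 by limma), and its second probe set rose by 0.48. These 3 genes were higher on every silenced array than on either control. On the arrays of low spike level alone Psap and Ppt1 did not pass (limma adjusted p = 0.0536 and 0.0665). Lipa, the acid lipase of cholesteryl esters, was dim and did not pass (177 ± 4.01 as mean ± SD of 5 arrays against 188 ± 14.7 of 2).

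Of 5 lysosomal membrane protein genes 1 rose and 1 fell. That is 20.0% each, against 12.0% and 11.0% of all genes at or above the median level, where all 5 lay. Cd68, a heavily glycosylated relative of the Lamp proteins best known from macrophages, read 329, 285, 219.8, 269.9 and 285 on the silenced arrays and 207 and 150.1 on the controls. It rose 1.51-fold (a log2 difference of 0.60 with SE 0.15, adjusted p = 0.024 by limma), with no overlap though the lowest silenced array lay near the higher control, and lost its call without control replicate 6 (0.226, at a log2 difference of 0.38) or silenced replicate 2 or 7 (0.0552 and 0.052). Of 20 macrophage and dendritic cell markers 1 rose (Cd14) and 1 fell (Tyrobp), while of all genes 8.03% rose and 8.57% fell. Only 3 of the 20 reached the array median. Tyrobp lost its call without either control. The summed level of the 20 was 2895 to 3179 on silenced arrays and 3051 and 3064 on controls. The brightest of the 20, Csf1r, read 438 with Trp63 siRNA and 455 in controls, and Cx3cr1 read 220 and 211, both without passing. Among the dimmer ones, Ptprc, Itgam and Adgre1, which define such cells, read 74.9, 90.8 and 133 with Trp63 siRNA and 75.8, 90.7 and 139 in controls. No probe set was at 0, since the lowest deposited intensity was 58.5. The part of such cells in the difference of Cd68 was not tested.

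Scarb2, which carries beta-glucocerebrosidase to the lysosome, read 1037, 1083, 1011, 1139 and 1122 on the silenced arrays and 1284 and 1463 on the controls. It fell 1.27-fold (a log2 difference of -0.34 with SE 0.077, adjusted p = 0.0165 by limma), its second probe set (-0.12) did not pass, and the call was lost without control replicate 6 (0.166) and when the spike level entered as a block (0.0837). Lamp1 and Lamp2, which coat the inner face of the membrane, differed by 0.11 and -0.03, and the calcium channel gene Mcoln1 by 0.04 (limma adjusted p = 0.111, 0.763 and 0.803). Tfeb, the transcription factor of lysosome genes, read 441, 428, 433, 501 and 425 on the silenced arrays and 548 and 468 on the controls. It did not pass (-0.18, SE 0.090, limma adjusted p = 0.212), and silenced replicate 4 lay between the controls.

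**Figure D3:**
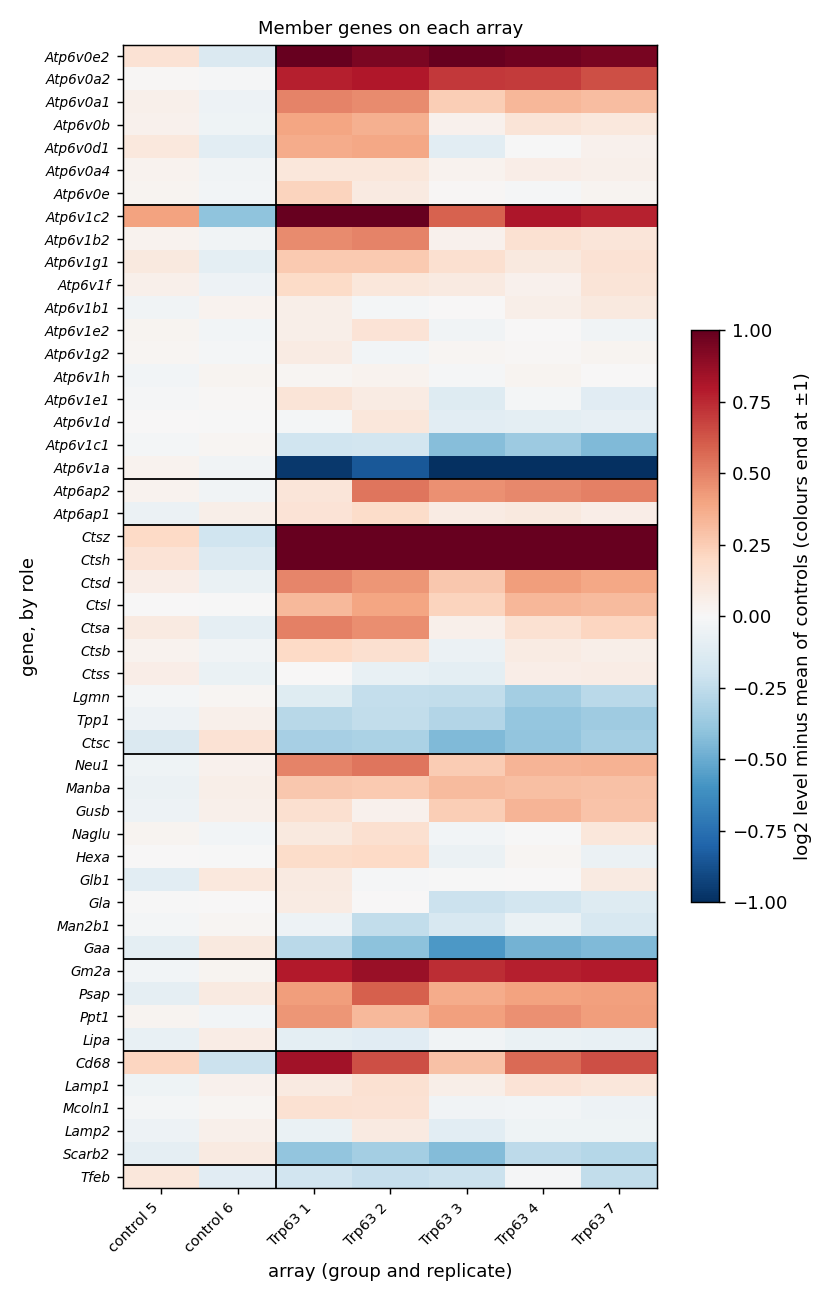
Each row is a member gene and each column an array, and colour gives the log2 level minus the mean of the controls, with horizontal lines between roles. Ctsh, Ctsz and Gm2a are high on all 5 silenced arrays, while Atp6v0b, Atp6v0d1 and Atp6v1b2 are highest on silenced replicates 1 and 2.

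Pump genes also varied within the silenced group. On silenced replicates 1 and 2, the arrays of high melanocyte level, 15 of 21 pump genes (71.4%) read above all of silenced replicates 3, 4 and 7, and none read below all of them. Of 23 hydrolase and activator genes 11 (47.8%) read above, and of all genes 25.3%. Examples are Atp6v0d1 (2450.3 and 2480.0 against 1762 to 1953) and Ctsa (1664 and 1620.1 against 1208 to 1354). For 12 of the 21 pump genes (57.1%) control replicate 5, also of high melanocyte level, was above control replicate 6 as well, against 18.5% of all genes. With the melanocyte split as a block, 8 pump genes rose: Atp6v0b (0.23), Atp6v1b2 (0.29) and Atp6v1g1 (0.20) joined those named above (limma adjusted p = 0.021, 0.0137 and 0.00841), and of all genes 11.7% rose under that block. Ctsa, Gusb and Lgmn also passed under that block, the first pair higher and Lgmn lower. What part the melanocyte level has in these differences was not tested.

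Several genes could be checked with a second probe set. There were 92 probe sets for the 50 genes, and 25 genes had more than 1. Of all probe sets 7.83% rose and 8.16% fell. In no gene were probe sets called in opposite directions. Of 13 called members with several probe sets, 10 had another one called the same way, and in 11 all probe sets shared the sign. Atp6v0a1 and Neu1 were the exceptions in sign.

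**Figure D4:**
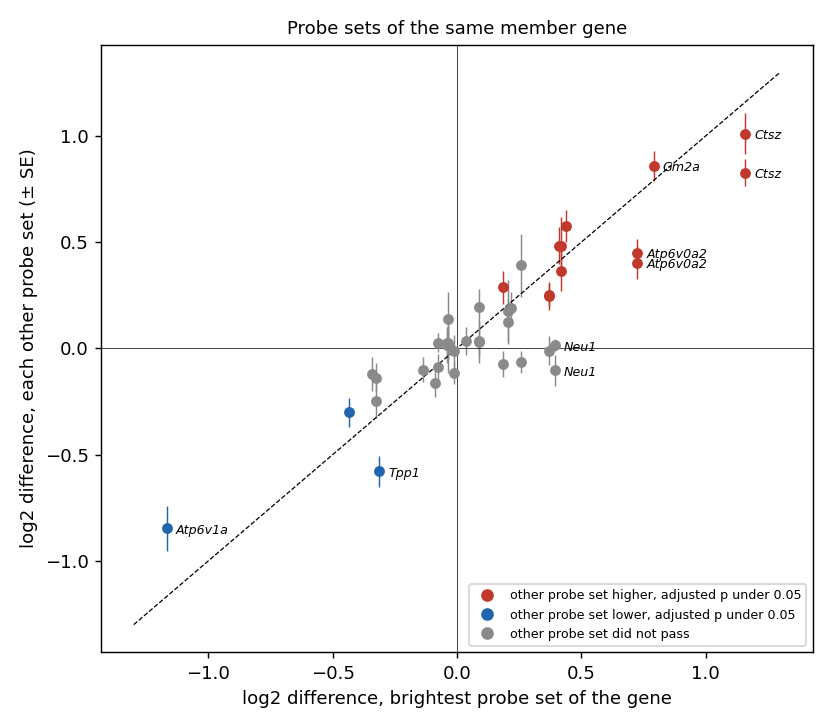
For members with several probe sets, the log2 difference at each other probe set (vertical axis, ± SE) is set against that at the brightest (horizontal axis), with a dashed line of equality. Ctsz, Gm2a, Atp6v0a2, Atp6v1a and Tpp1 lie on the same side of 0 at each of their probe sets, and the other probe sets of Neu1 lie at -0.10 and 0.01.

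Other genes of the pathway were read from lists, whose differences from the members were not tested. Of 23 genes listed as other lysosomal hydrolases, some of them not hydrolases themselves, such as Sumf1, none passed limma's test, against 16.6% of all genes. Of all genes at or above the median level, where 16 of the 23 lay, 23.0% were called. An unadjusted p under 0.05 was found for 4 of the 23, and their median difference was -0.01. Sumf1, which activates sulphatases, differed by 0.23 (limma adjusted p = 0.0602) and Idua by -0.13 (0.109). Sumf1 passed under 9 of the alternatives, among them quantile normalisation (0.047), median centring (0.0413), the mean of probe sets (0.0105) and the melanocyte block (0.0386). Among 22 other membrane protein genes there were 3 rises and 1 fall (13.6% and 4.55%), and 18 did not pass. Of all genes at or above the median level, where 17 of the 22 lay, 12.0% rose and 11.0% fell, so the rises were near the background. Cln3 read 307, 314, 307, 284 and 288 on the silenced arrays and 228 and 231 on the controls. It rose 1.29-fold (a log2 difference of 0.36 with SE 0.063, adjusted p = 0.00459 by limma). On the arrays of low spike level alone Cln3 did not pass (limma adjusted p = 0.113). Laptm4a rose 1.17-fold (a log2 difference of 0.23 with SE 0.047, adjusted p = 0.0112 by limma), whereas its relative Laptm4b fell 1.25-fold (a log2 difference of -0.32 with SE 0.079, adjusted p = 0.0231 by limma). Laptm4a lost its call without either control, and Laptm4b without control replicate 6 or silenced replicate 4 or 7, and both when the spike level entered as a block (limma adjusted p = 0.0727 and 0.114). The third rise was the iron transporter gene Slc11a2 (0.26).

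Among 12 sorting genes there were 2 rises and 1 fall, and 9 did not pass. These shares of 16.7% and 8.33% were near those of all genes at or above the median level (12.0% and 11.0%), where all 12 lay. Cln8, whose product helps lysosomal enzymes to leave the endoplasmic reticulum, read 1159, 1166, 968, 962 and 989 on the silenced arrays and 682 and 648 on the controls. It rose 1.56-fold (a log2 difference of 0.64 with SE 0.098, adjusted p = 0.00251 by limma), and the groups did not overlap. On the arrays of low spike level alone Cln8 did not pass (limma adjusted p = 0.0578). Sort1, an alternative sorting receptor, rose 1.34-fold (a log2 difference of 0.42 with SE 0.10, adjusted p = 0.022 by limma), a call lost without either control. Gga2, an adaptor for mannose 6-phosphate receptors, fell 1.45-fold (a log2 difference of -0.54 with SE 0.092, adjusted p = 0.00424 by limma), a call lost without control replicate 6 (limma adjusted p = 0.0657). The receptor genes M6pr and Igf2r differed by 0.05 and 0.19 and did not pass.

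Of 21 autophagy genes 5 rose, none fell and 16 did not pass. The rises were 23.8% of the list. Of all genes at or above the median level, where all 21 lay, 12.0% rose and 11.0% fell. Uvrag, Wipi2 and Ulk2, which act in the formation of autophagosomes and their fusion, rose 1.37-fold, 1.54-fold and 1.34-fold (limma adjusted p = 0.00216, 0.00281 and 0.00328). Ulk2 did not pass with its probe sets averaged (0.182). On the arrays of low spike level alone Uvrag, Wipi2 and Ulk2 did not pass (limma adjusted p = 0.0799, 0.0665 and 0.0936). Gabarapl2 (0.73) and the cargo receptor gene Sqstm1 (0.45) were the other rises. The 16 genes of late endosome fusion also lay at or above the median level, and 6.25% of them rose. On 4 of the 16 all silenced arrays lay below both controls and on 3 all lay above, where 24.0% and 14.3% of all genes did so. Silenced replicate 1 was far below the other silenced arrays for some of the 16, which widens their scatter. Examples are Vps35 (1199 against 2247 to 2287) and Vamp7 (260 against 491 to 639). Only Rab9 passed. It read 808, 869, 825, 819.5 and 892 on the silenced arrays and 555 and 479 on the controls, a 1.61-fold rise (a log2 difference of 0.69 with SE 0.079, adjusted p = 0.000547 by limma). Of 13 nutrient sensing genes none passed limma's test, against 16.6% of all genes. An unadjusted p under 0.05 was found for 3, among them Rraga (0.43) and Rragc (0.16). With the melanocyte block both passed (0.39 and 0.16, limma adjusted p = 0.00131 and 0.0418), and Rraga also did with array weights (0.0119) and without silenced replicate 1 (0.0217). The Tfeb relatives Mitf (0.09) and Tfec (-0.02) did not pass, and none of this pair had an unadjusted p under 0.05. Mitf is also a melanocyte gene.

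Among 5 measured cystatins and stefins, which inhibit cysteine cathepsins, 1 fell (20.0%, against 8.57% of all genes) and 4 did not pass. Stfa3, a stefin A gene, read 3709.8, 3422, 3995, 4219 and 4292 on the silenced arrays and 7444 and 7935 on the controls. It fell 1.96-fold (a log2 difference of -0.97 with SE 0.083, adjusted p = 0.000112 by limma), and every silenced array lay far below both controls. Stefin A genes are near-identical copies, and their probe sets may share signal. Cst6, Cst3, Cstb and Cst7 differed by 0.81, -0.23, -0.26 and 0.28 without passing.

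**Figure D5:**
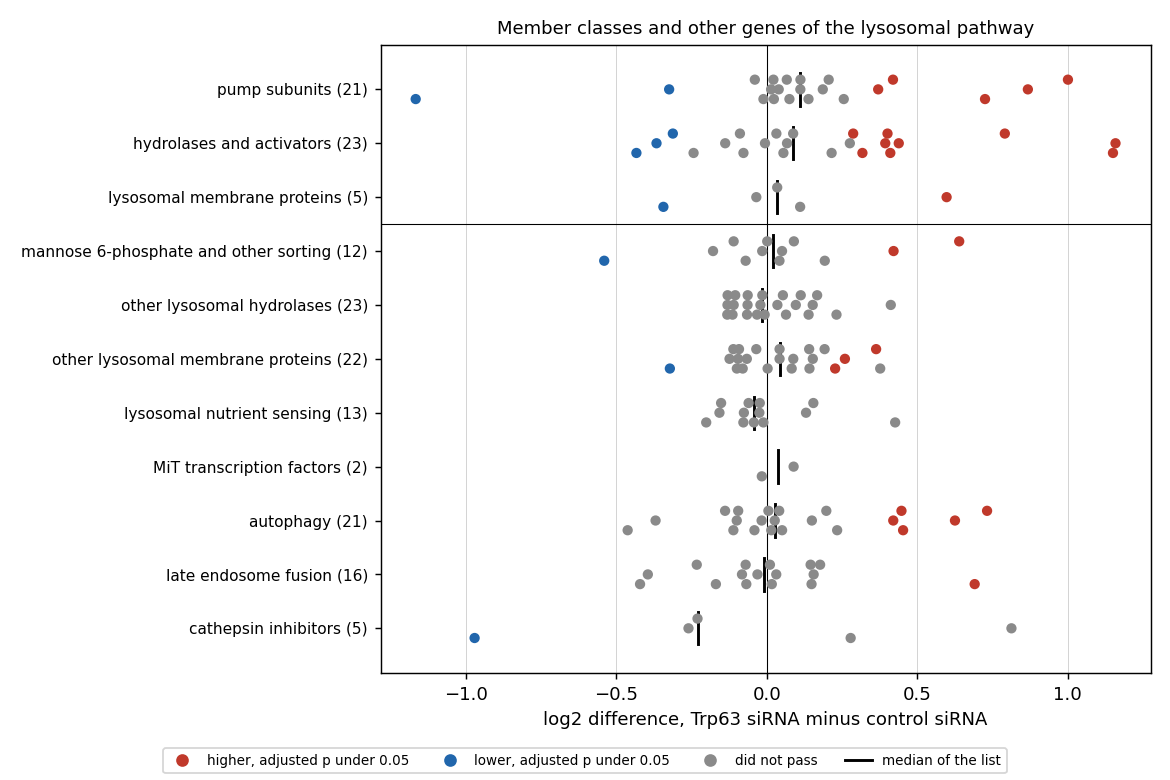
Log2 differences of single genes (dots, coloured by limma's test) are shown for the 3 larger member classes, above the line, and 8 other lists of the pathway, below it, with a black bar at each median and the number of genes in brackets. Dots above 0.7 lie in the pump, hydrolase, autophagy and cathepsin inhibitor rows, and no dot of the other lysosomal hydrolases is coloured.

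Markers of further cell types were read beside these values. Of 13 melanocyte markers none passed limma's test, against 16.6% of all genes. None had an unadjusted p under 0.05, and the brightest, Dct and Pmel, differed by -0.01 and 0.16. With the melanocyte block, which these markers define, Pmel passed (0.24, limma adjusted p = 0.0071). Of 15 fibroblast markers 2 rose, or 13.3% against 8.03% of all genes, and 13 did not pass. The rises were Col5a2 (1.73-fold) and Col1a1 (1.36-fold). The summed level of the 15 was 2769 to 2940 on silenced arrays against 2266 and 2563 on controls. Col1a1 did not pass once control replicate 6 was dropped (limma adjusted p = 0.0504), nor on the low-spike arrays (0.0638). Of 15 keratinocyte markers, several of them known targets of p63, 12 fell and 2 rose. These were 80.0% and 13.3%, against 8.57% and 8.03% of all genes. Trp63, the target of the siRNA, is itself among the 15 and the 12 that fell. Epcam rose 3.39-fold and Sfn fell 1.51-fold. The part of all these markers in the differences of the lysosome genes was not tested.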

How the data were processed

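RNA of 7 samples of mouse keratinocytes was made into biotinylated cRNA by the Affymetrix protocol, per the labels, and read on 1 array a sample. The deposited values are linear intensities per probe set, whose summarisation and normalisation are not given in the sources used here. They were used as deposited. From the table of 22690 probe sets the 64 controls were dropped, so that tests ran on 22626. Of these 20380 carry 1 gene symbol in GEO's platform annotation, 691 several and 1555 none, and 20351 were matched to a current gene. A gene is read from its probe set of highest mean level over all arrays of both groups.

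Intensities were taken as log2(intensity + 16), and Trp63 siRNA was compared with control siRNA by limma 3.58.1 in R 4.3.3 (lmFit, eBayes with a trend, two-sided, Benjamini-Hochberg over all 22626 probe sets, threshold 0.05). Folds come from the same scale. The fit was tested on simulated data. Tables and figures were made with Python 3.11.15 and matplotlib 3.10.9. Promoter windows are from RefSeq.

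The members and lists were chosen with earlier results of these data known. Named in full are up to 6 genes past the threshold with the smallest p in each role and up to 3 in each pathway list, or 2 where none passed. Other genes named (such as Tcirg1, Slc11a2, Asah1, Vps35, Gabarapl2, Sqstm1, Itgam, M6pr, Igf2r and the cystatins that did not pass) were chosen after their values were seen. There were 20 alternatives: other pseudocounts (1 and 64), normalisations, filters on dim probe sets (25th and 50th percentile), variance models, array weights, the mean of probe sets, each array left out, and array splits by melanocyte or spike level.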

Additional observations from a re-analysis of the deposited data

Results flagged for a closer look

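In each case here 1 of the 5 silenced arrays stood apart from the other 4 by Dixon's test, which chance alone sets off in about 1 in 20 groups. It did so for 4 of the 50 member genes. Atp6ap2 read 2594.7 on silenced replicate 1, below 3282 to 3464 on the others. Ctsh read 4595 on silenced replicate 3, below 4873 to 4959. Psap read 5035 on silenced replicate 2, above 4313 to 4459. Tfeb read 500.8 on silenced replicate 4, above 425 to 441. Among the other genes given in full, Mitf read 649 on silenced replicate 2, above 430.3 to 454, Wipi2 read 795.5 on silenced replicate 1, above 669 to 701, and Sfn read 4971 on silenced replicate 1, above 4312 to 4495.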

How the results depend on the processing

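Of 990 member values under the 20 alternatives, 930 kept their side of the threshold, 45 lost the call, 15 gained it and no called value changed direction. Of 21 called members 8 kept the call under every alternative that tested them: Atp6v0a2, Atp6v0e2, Atp6v1a, Ctsd, Ctsh, Ctsl, Ctsz and Gm2a. Atp6v0e2 was removed by the filter at the 50th percentile. Leaving out each array in turn gave 10 to 15 members higher and 1 to 7 lower, pump genes 2 to 5 and 1 to 2, hydrolases 7 to 9 and 0 to 4, and membrane proteins 0 to 1 either way. With 1 control left, that array is assumed to vary like the silenced ones. The mean of probe sets left 1 pump gene lower. The melanocyte split as a block gave 8 pump genes higher. The spike split could not be used as planned, since its high side held no control, and both spike alternatives were chosen after seeing the data. As an additive block it left 2 members lower, 3 pump genes higher and 1 lower, 1 hydrolase lower and 0 membrane proteins lower. The block takes each difference from the 4 arrays of low level, and the others enter only the estimate of scatter. Both spike alternatives therefore gave the same differences (for Atp6v1a -1.13 in each). The 4 arrays of low spike level gave 7 members higher and 1 lower, pump genes 2 and 1, hydrolases 5 and 0, and membrane proteins 0 and 0, with fewer samples. Over all genes, counts moved from 995 higher and 1062 lower to 465 and 344 without control replicate 6, to 669 and 523 without control replicate 5, to 1280.0 and 1893 without silenced replicate 1, to 1448 and 1688 with the melanocyte block, to 676 and 442 with the spike block and to 323 and 150 on the low-spike arrays. No paired analysis was possible because the groups share no replicate number. Only 2 controls set the reference, and dim probe sets near the lowest intensities have little room to fall.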
